A study of Homo sapiens with 6 samples.

Results

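The genes of iron storage, uptake and sensing were compared between SW480 cells given the mitochondrial fluorescent probe MPM-1 for 24 h and SW480 cells given DMSO. SW480 is an established line from a human colorectal adenocarcinoma. The genes were picked by symbol for their roles in iron handling, with earlier results of these data known, and the rule itself used no measured value. The group holds 10 genes (FTH1, FTL, NCOA4, TFRC, SLC11A2, SLC40A1, IREB2, ACO1, FBXL5 and GPX4), and each was found once among the 12982 genes of the deposited table. RNA was sequenced from 3 libraries per treatment of SW480 cells of wild-type genotype as labelled. The labels call the compound WT4 and state that it is MPM-1, and its dose in this experiment is not given in the sources used here. Nothing states that the libraries came from separate cultures, so the p-values measure the spread between these libraries, which may be technical.

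Cells take up iron bound to transferrin through the transferrin receptor and move it across membranes with divalent metal transporters. Iron that is not used is stored inside ferritin, a hollow shell built of heavy and light subunits, and is released when the receptor NCOA4 carries ferritin to the lysosome. Iron regulatory proteins sense the supply. When iron is scarce they bind hairpins called iron-responsive elements (IREs). Bound to the 5′ untranslated region (UTR) of a message they block its translation, and bound to the 3′ UTR of the transferrin receptor message they protect it from decay. RNA counts therefore read the second kind of control directly and the first hardly at all. Some of these genes also serve the uptake of dietary iron in the intestine. This line descends from the colorectal epithelium, and uptake of iron was not measured.

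To show which of the messages carry these hairpins, the UTRs of GENCODE release 29 (GRCh38) were searched for a bulged C followed by 5 bases, the loop CAGTGN and 5 bases that pair with the first 5 (G with T allowed). The elements are printed as DNA letters in the sense of the message, 5′ to 3′, with the bulged C and the 6 bases of the loop in capitals. Of the 10 genes, 4 held a match. In the 5′ UTR these were FTH1 (chr11:61967573-61967602, minus strand), FTL (chr19:48965335-48965364, plus strand) and SLC40A1 (chr2:189580660-189580689, minus strand), while TFRC had 4 matches in its 3′ UTR. The first of those lies at chr3:196050978-196051007 and the last at chr3:196050462-196050491, both on the minus strand.
FTH1: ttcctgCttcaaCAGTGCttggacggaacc
FTL: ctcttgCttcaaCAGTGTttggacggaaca
SLC40A1: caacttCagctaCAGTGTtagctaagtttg
TFRC, first: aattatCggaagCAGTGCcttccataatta
TFRC, last: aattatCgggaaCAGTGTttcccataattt

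The pattern is rare. It was found in the 5′ UTR of 0.169% of the 11856 tested genes with such a region and in the 3′ UTR of 0.808% of 12003. With 1 unpaired base allowed in the second arm, a setting chosen after seeing the data, SLC11A2 and IREB2 also held a match in the 3′ UTR, and these shares were 0.43% and 2.06%. The SLC11A2 element lies at chr12:50988268-50988297 on the minus strand, in a transcript form that gene-level counts do not separate from the others. Among IRE-bearing messages outside the group, the looser pattern was found in the 5′ UTR of EPAS1, which encodes the hypoxia factor HIF-2α. A match is a description of the letters and was not tested for binding.
SLC11A2: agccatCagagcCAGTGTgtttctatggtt
EPAS1: tacaatCctcggCAGTGTcctgagactgta

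Among the 10 genes, FTH1, FTL, FBXL5 and NCOA4 were higher after MPM-1, IREB2 and SLC40A1 were lower, and TFRC, SLC11A2, ACO1 and GPX4 did not pass the test. A gene passed when edgeR's quasi-likelihood test of the counts gave a Benjamini-Hochberg adjusted p under 0.05 over all genes. SE stands for the standard error of a log2 fold change. The 4 higher genes compare with 27.7% of all genes tested that passed as higher, and the 2 lower genes with 28.8% that passed as lower, so 6 of 10 passed where 56.5% of all genes did. In 6 of the 10 the libraries of the treatments did not overlap, against 64.3% of all genes, so the number of changed genes in the group was near the background. A stricter call, named DEG here, asked for an adjusted p under 0.01 together with a change of 1 or more on the log2 scale in either direction. It was met by FTH1 alone among the 10, and by 14.3% of all genes (5.58% higher, 8.75% lower). The median log2 fold change was 0.18 in the group and -0.026 over all genes. With scaling by library size alone 3 genes passed as higher and 3 as lower. In bulk RNA, a change in the message per cell and a change in the mix of cells cannot be told apart.

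**Figure D1:**
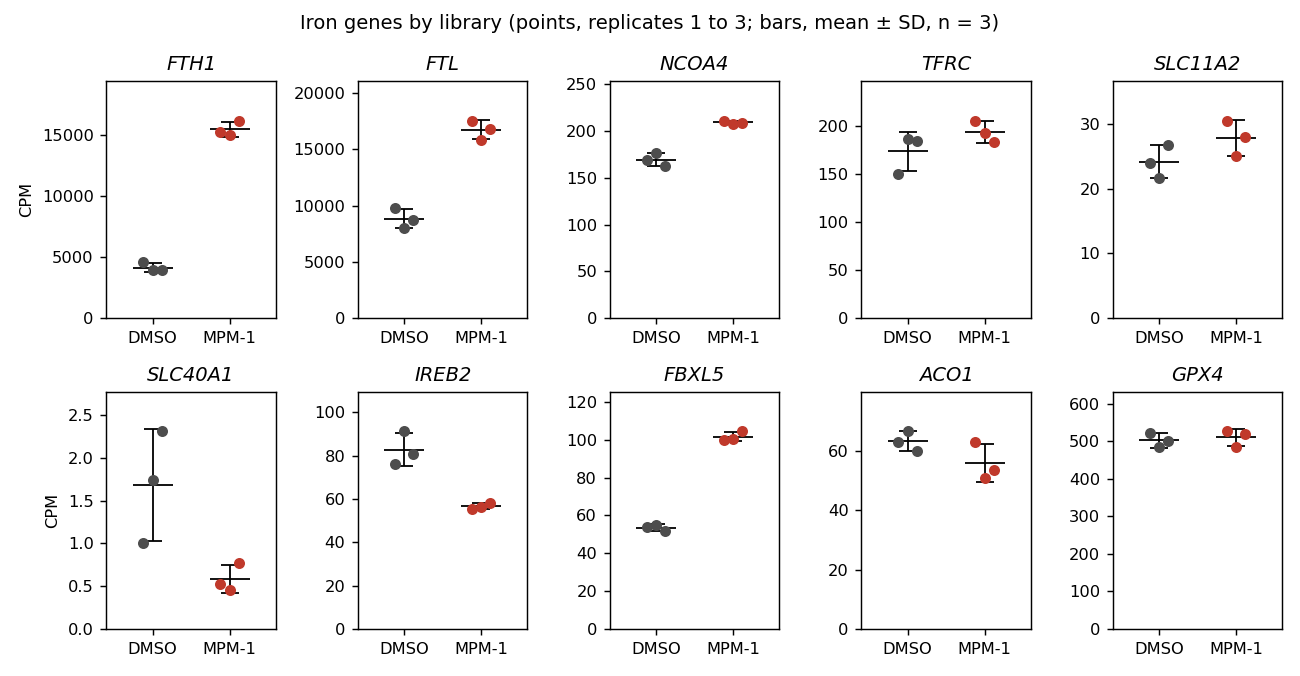
Normalised counts (CPM, linear axes from 0) of the 10 iron genes in each library, with 3 DMSO libraries in grey, 3 MPM-1 libraries in red, and bars for the mean ± SD. FTH1, FTL, NCOA4 and FBXL5 lie higher in all 3 MPM-1 libraries, IREB2 and SLC40A1 lie lower in all 3, and the points of the other genes overlap.

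The largest change was in FTH1, in ferritin, the iron store. FTH1 (ENSG00000167996, chromosome 11, 61959718 to 61967660, minus strand) encodes the heavy subunit, which carries the ferroxidase activity that oxidizes iron for storage. Its CPM (counts per 1000000 counts of the library, after TMM scaling) were 4560, 3914 and 3917 in DMSO replicates 1 to 3 and 15226, 14935 and 16147 in MPM-1 replicates 1 to 3. Every MPM-1 library was far above every DMSO library. The means were 4130 ± 372 and 15436 ± 633 CPM (SD, n = 3 libraries each), a 3.74-fold rise (95% interval 3.34 to 4.18). On the log2 scale this was 1.90 (SE 0.073, edgeR adjusted p = 2.44e-07).

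FTL (ENSG00000087086, chromosome 19, 48965301 to 48966878, plus strand) encodes the light subunit, which helps iron to form a mineral core inside the shell. Its CPM were 9758, 8050 and 8687 in the DMSO libraries and 17541, 15851 and 16787 in the MPM-1 libraries. The groups did not overlap, and the means were 8832 ± 863 and 16726 ± 847 CPM (SD, n = 3 each). This was a 1.89-fold rise (95% interval 1.69 to 2.13), or 0.92 on the log2 scale (SE 0.075, edgeR adjusted p = 1.09e-05), just under the size that a DEG requires.

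The heavy subunit message thus rose more than the light one. On the FPKM scale, which is corrected for transcript length and so allows levels of different genes to be compared, the ratio of FTH1 to FTL was 0.409, 0.412 and 0.396 in the DMSO libraries and 0.853, 0.818 and 0.837 in the MPM-1 libraries. The mean ratio went from 0.406 ± 0.00818 to 0.836 ± 0.0174 (SD, n = 3 each), a 2.06-fold difference. The ratio was higher in all 3 MPM-1 libraries, and the two-sided exact permutation test gave p = 0.1, the smallest that 3 libraries against 3 allow (adjusted p = 0.1 over 3 ratios). Computed from counts, the log2 difference of the ratio was 0.98, against 1.04 from FPKM.

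Ferritin messages were among the most abundant in these cells. By mean FPKM, FTL ranked 7 and FTH1 ranked 12 of the 12982 genes in DMSO, and they ranked 1 and 2 after MPM-1. The mean FPKM of FTH1 was 4162 ± 336 in DMSO and 14616 ± 762 after MPM-1, and that of FTL was 10256 ± 811 and 17477 ± 548 (SD, n = 3 each). Together the ferritin genes took up 1.28% to 1.47% of all counts in the DMSO libraries and 2.98% to 3.12% in the MPM-1 libraries.

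**Figure D2:**
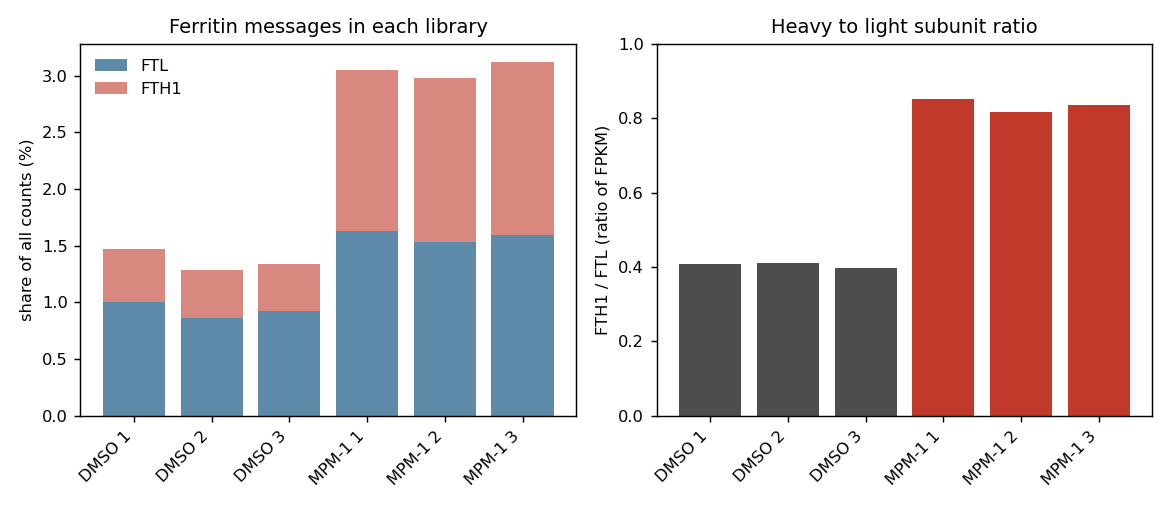
Left, share of all counts (%) taken by FTL (blue) and FTH1 (red, stacked) in each of the 6 libraries. Right, ratio of FTH1 to FTL by FPKM in each library (DMSO grey, MPM-1 red), which lies between 0.396 and 0.412 in DMSO and between 0.818 and 0.853 after MPM-1.

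FTH1 overlaps BEST1 on the opposite strand, and whether the counting used strand is not given in the sources used here. BEST1 counts varied widely between libraries of the same treatment, with 256, 11944 and 8225 in DMSO and 20031, 13500 and 2436 after MPM-1, which is 0.17% to 7.07% of the FTH1 count of the same library. With both genes summed, a setting chosen after seeing the data, the log2 fold change of FTH1 was 1.88 (edgeR adjusted p = 8.42e-08). FTH1 and FTL also have many processed pseudogenes, 25 named FTH1P and 16 named FTLP in GENCODE 29. None of them was a row of the table, and how reads shared with them were counted is not given, so the absolute levels are uncertain to that extent.

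NCOA4 (ENSG00000266412, chromosome 10, 46005088 to 46030714, minus strand), the receptor that delivers ferritin to the lysosome for breakdown, was also higher. It had 169, 176 and 163 CPM in DMSO and 211, 208 and 209 CPM after MPM-1. The MPM-1 libraries lay close together above all DMSO libraries. The rise was small, 1.24-fold (95% interval 1.11 to 1.38; log2 fold change 0.31, SE 0.069, edgeR adjusted p = 0.0042). It did not pass with scaling by library size alone (log2 fold change 0.15, adjusted p = 0.0778) or with limma on log2(FPKM + 0.1) (0.15, adjusted p = 0.0872).

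The 2 uptake genes did not pass the test. TFRC (ENSG00000072274, chromosome 3, 196027183 to 196082189, minus strand) encodes transferrin receptor 1, through which most cells import iron. Its CPM were 150, 186 and 185 in DMSO and 206, 193 and 183 after MPM-1, so that the groups overlapped. The fold change was 1.12 (95% interval 0.959 to 1.30, edgeR adjusted p = 0.192). On the log2 scale the difference was 0.16, and it was 0.0056 with scaling by library size alone and 0.011 with limma on log2(FPKM + 0.1).

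SLC11A2 (ENSG00000110911, chromosome 12, 50979401 to 51028566, minus strand) encodes the divalent metal transporter DMT1. It had 24.01, 21.70 and 26.71 CPM in DMSO and 30.49, 24.97 and 28.00 CPM after MPM-1, again with overlap. The fold change was 1.15 (95% interval 0.963 to 1.38, edgeR adjusted p = 0.157), and its log2 value was -0.13 with limma on log2(FPKM + 0.1), also without passing.

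The balance of the uptake message against the storage message differed all the same. The ratio of TFRC to FTH1 by FPKM was 0.00647, 0.00979 and 0.00924 in the DMSO libraries and 0.00236, 0.00256 and 0.00228 in the MPM-1 libraries. It was lower in all 3 MPM-1 libraries, by 1.80 on the log2 scale (two-sided exact permutation p = 0.1, the smallest possible, adjusted p = 0.1 over 3 ratios). TFRC itself overlapped between the treatments, and FTH1 did not.

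SLC40A1 (ENSG00000138449, chromosome 2, 189560579 to 189583758, minus strand) encodes ferroportin, the only known iron exporter of mammalian cells. It was scarcely expressed, with 33, 75 and 92 counts in DMSO and 16, 14 and 26 counts after MPM-1. In CPM these were 1.00, 1.74 and 2.31 against 0.525, 0.455 and 0.774, so the MPM-1 libraries were all below the DMSO libraries. On the log2 scale the difference was -1.52 (SE 0.41, edgeR adjusted p = 0.0107), with a 95% interval of 0.184 to 0.661 for the fold. Without DMSO replicate 3 it did not pass (log2 fold change -1.22, adjusted p = 0.0531). These values rest on few reads, and their precision is limited accordingly.

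Of the sensors, IREB2 and FBXL5 moved in opposite directions. IREB2 (ENSG00000136381, chromosome 15, 78437431 to 78501456, plus strand) encodes iron regulatory protein 2 (IRP2), which is degraded when iron is plentiful. It had 76.1, 91.2 and 80.8 CPM in DMSO and 55.4, 56.1 and 58.1 CPM after MPM-1. All MPM-1 libraries were below all DMSO libraries, at 0.684 of the DMSO level (95% interval 0.599 to 0.781; log2 fold change -0.55, SE 0.085, edgeR adjusted p = 0.000495).

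FBXL5 (ENSG00000118564, chromosome 4, 15604539 to 15681679, minus strand) encodes the iron-binding F-box protein that marks IRP2 for degradation. It had 53.6, 55.1 and 51.6 CPM in DMSO and 99.9, 101 and 104 CPM after MPM-1. The groups were narrow and far apart, and the rise was 1.90-fold (95% interval 1.70 to 2.12; log2 fold change 0.93, SE 0.071, edgeR adjusted p = 7.64e-06). On the FPKM scale the rise was smaller, with a log2 difference of 0.57 by limma on log2(FPKM + 0.1) (adjusted p = 0.000886). FAM200B, which overlaps FBXL5 on the opposite strand, had lower values, at 12.8 ± 0.777 CPM in DMSO and 16.5 ± 1.79 CPM after MPM-1.

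ACO1 (ENSG00000122729, chromosome 9, 32384603 to 32454769, plus strand) encodes iron regulatory protein 1 (IRP1), which with an iron-sulfur cluster acts as the cytosolic aconitase and without it binds IREs. Its CPM were 63.1, 66.6 and 59.8 in DMSO and 63.0, 50.9 and 53.7 after MPM-1. The first MPM-1 library lay among the DMSO libraries, and the fold change of 0.885 (95% interval 0.763 to 1.03) did not pass (edgeR adjusted p = 0.141). Without MPM-1 replicate 1 the log2 fold change went from -0.18 to -0.26 and passed (adjusted p = 0.0327), and with scaling by library size alone it passed at -0.33 (adjusted p = 0.0116). It also passed with limma on log2(FPKM + 0.1), at -0.33 (adjusted p = 0.0307). By FPKM the MPM-1 libraries (7.60, 6.39 and 6.59) all lay below the DMSO libraries (8.44, 9.21 and 8.25).

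Both iron regulatory proteins can be set against each other per length. The ratio of IREB2 to ACO1 by FPKM was 1.42, 1.61 and 1.59 in the DMSO libraries and 1.05, 1.31 and 1.28 in the MPM-1 libraries. It was lower in all 3 MPM-1 libraries, by 0.35 on the log2 scale (two-sided exact permutation p = 0.1, the smallest possible, adjusted p = 0.1 over 3 ratios).

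GPX4 (ENSG00000167468, chromosome 19, 1103926 to 1106791, plus strand) encodes the selenium-containing peroxidase that reduces lipid hydroperoxides in membranes and protects cells from ferroptosis, an iron-dependent form of cell death. Its CPM were 523, 483 and 499 in DMSO and 526, 484 and 520 after MPM-1. By CPM the libraries overlapped almost fully, and the fold change was 1.02 (95% interval 0.913 to 1.13, edgeR adjusted p = 0.791). By FPKM they did not overlap, with 651, 623 and 645 in DMSO and lower values of 592, 568 and 597 after MPM-1. The sign of the GPX4 change was not stable, since the log2 fold change was -0.13 with scaling by library size alone and with limma on FPKM, without passing in either.

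**Figure D3:**
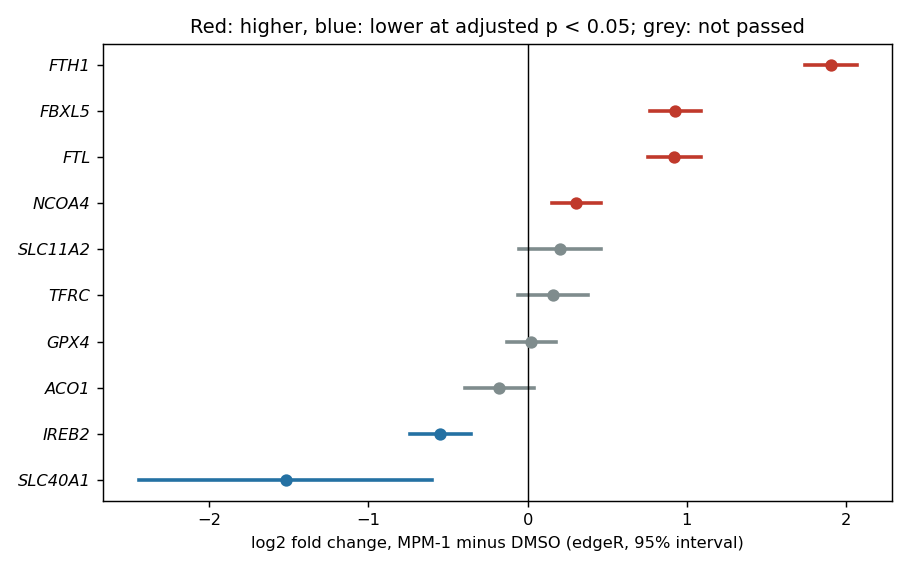
log2 fold change of MPM-1 minus DMSO for the 10 iron genes, with 95% intervals from edgeR (n = 3 libraries per treatment). FTH1 stands apart at 1.90, FBXL5 and FTL lie near 0.92, and the intervals of TFRC, SLC11A2, ACO1 and GPX4 include 0.

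The order of the levels within a treatment was read from FPKM. In DMSO the mean FPKM fell from FTL (10256) and FTH1 (4162) through GPX4 (640), NCOA4 (49.1), TFRC (34.98), FBXL5 (22.8), IREB2 (13.3), ACO1 (8.63) and SLC11A2 (6.93) to SLC40A1 (0.499), and no neighbours in this order overlapped between libraries. The order was the same after MPM-1, but TFRC (35.03 ± 1.43) and FBXL5 (34.01 ± 3.20) then overlapped, as did ACO1 (6.86 ± 0.653) and SLC11A2 (6.33 ± 0.512).

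Set against their IREs, the messages with a 5′ element did not share one direction. FTH1, EPAS1 and FTL were higher, with log2 fold changes of 1.90, 1.27 and 0.92, whereas SLC40A1 was lower at -1.52 (all passed in the edgeR test). The SLC40A1 value rests on 14 to 92 counts per library and did not pass without DMSO replicate 3 (edgeR adjusted p = 0.0531). EPAS1 went from 16.5 ± 2.77 to 39.9 ± 5.55 CPM (SD, n = 3 each). Of the messages with a 3′ match, TFRC and SLC11A2 did not pass and IREB2 was lower. SLC11A2, IREB2 and EPAS1 matched only the looser pattern, a setting chosen after seeing the data. CDC14A, a cell cycle phosphatase message with a match in the 3′ UTR, had a log2 fold change of -0.60 and did not pass (edgeR adjusted p = 0.0781).

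The genes around the group were described with 9 lists drawn up from general knowledge. Their counts are to be read beside the 27.7% of all genes that passed as higher and the 28.8% that passed as lower. In the uptake and reduction list (10 of 14 genes in the table), 3 passed as higher and 1 as lower (3 and 3 with scaling by library size alone). The largest rise was in LCN2, the siderophore-binding lipocalin, from 3.50 ± 0.718 to 558 ± 28.5 CPM (log2 fold change 7.32). STEAP1 of the metalloreductase family followed at 1.40, and SLC39A14, an importer of zinc and of iron that is not bound to transferrin, at 0.50. The STEAP1 counts were low and varied between libraries, with 38, 111 and 120 in DMSO and 183, 234 and 142 after MPM-1. STEAP3, the reductase that acts on iron in the transferrin receptor pathway, fell by 0.76 on the log2 scale. CYBRD1, the duodenal ferric reductase, had 65.8 ± 1.93 and 71.5 ± 3.38 CPM (SD, n = 3 each) and did not pass (adjusted p = 0.189, edgeR).

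In the list of storage partners (7 of 8 in the table), 3 were higher and 0 lower (3 and 1 by library size alone), while the median log2 fold change was -0.083. TAX1BP1, an autophagy receptor that works with NCOA4 in ferritin breakdown, rose from 138 ± 1.95 to 290 ± 16.7 CPM (log2 fold change 1.07). PCBP1 and PCBP2, the chaperones that load iron into ferritin, rose by 0.53 and 0.36. In the short export list (4 of 9 in the table), HEPH, the ferroxidase hephaestin that works with ferroportin, was the only gene to pass, at -0.44 (0 higher and 2 lower by library size alone). Of the ligase and IRE list (8 of 10), 5 were higher and 1 lower (3 and 3 by library size alone). CDC42BPA, a kinase whose message carries a known IRE, rose by 0.46 but did not pass with limma on FPKM. SKP1, a subunit of the ligase that holds FBXL5, rose by 0.45 and CUL1, its scaffold, fell by 0.40.

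In heme metabolism (19 of 19 genes), 7 were higher and 7 lower, with a median of -0.14 (4 and 9 by library size alone). ALAS1, the rate-limiting enzyme of heme synthesis outside red cells, rose from 90.8 ± 9.40 to 217 ± 3.22 CPM (log2 fold change 1.26), and the biliverdin reductase BLVRA and the heme transporter SLC48A1 rose by 0.64 and 0.59. Of the later enzymes of the same synthesis, ALAD (-0.62), PPOX (-0.61) and FECH (-0.52), which inserts the iron, fell. UROD rose by 0.21, and UROS (-0.22) and CPOX (-0.14) did not pass. FLVCR2, a transporter of the feline leukemia virus receptor family, had the largest fall at -1.52. HMOX1, the inducible heme oxygenase that frees iron from heme, had 12.7 ± 1.73 and 12.9 ± 1.29 CPM (adjusted p = 0.946, edgeR).

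In mitochondrial iron handling and iron-sulfur cluster assembly (23 of 23), 5 were higher and 10 lower, with a median of -0.18 (5 and 14 by library size alone). The scaffold ISCU (1.26), the late-acting carrier NFU1 (0.98) and the chaperone HSPA9 (0.96) had the largest rises, in log2 fold changes. Around them, the sulfur donor NFS1 (-0.74), its partner LYRM4 (-0.30) and the glutaredoxin GLRX5 (-0.62) fell, so subunits of the same assembly complex moved in opposite directions. The largest falls were in BOLA1 (-1.92), ABCB10 (-0.78) and IBA57 (-0.75). SLC25A37, the mitochondrial iron importer mitoferrin-1, rose by 0.65. In the cytosolic assembly list (11 of 11), 2 were higher and 3 lower (1 and 5 by library size alone), with GLRX3 (0.45) and CIAO2B (0.31) among the former, and CIAO1 (-0.55), CIAPIN1 (-0.52) and CIAO2A (-0.22) the latter. The CIAO2B call was lost with scaling by library size alone and with limma on log2(FPKM + 0.1). The CIAO2A call was lost with DESeq2's size factors in the edgeR fit and with DESeq2's own test.

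A further list held genes that act beside GPX4 in the defence against lipid peroxidation and in ferroptosis. Of 19 in the table (of 22 listed), 12 were higher, 3 lower and 4 did not pass, where 27.7% of all genes were higher and 28.8% lower. The median log2 fold change was 0.35. With scaling by library size alone 9 were higher and 3 lower. SLC7A11 and SLC3A2, the subunits of the cystine importer that feeds glutathione synthesis, rose from 62.6 ± 4.13 to 210 ± 18.3 CPM (log2 fold change 1.74) and from 184 ± 8.06 to 505 ± 55.2 CPM (1.45). SAT1, a polyamine-degrading enzyme, had the largest rise (1.89). CHAC1 rose by 1.23, from 9.02 ± 1.06 to 21.2 ± 5.62 CPM. AIFM2, which encodes the ferroptosis suppressor FSP1, rose by 1.01, while DHODH, its mitochondrial counterpart in reducing ubiquinone, fell by 1.42. VDAC3 and HSPB1 fell by 0.74 and 0.40. The list mixes genes of defence with other genes of ferroptosis, so its counts give no direction for the defence. ACSL4, which supplies the lipids that are oxidized, had 60.5 ± 3.03 and 65.6 ± 6.38 CPM and did not pass (adjusted p = 0.289, edgeR).

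Other selenoproteins did not move as one with GPX4. Of 25 genes of this list, 7 were higher, 10 lower and 8 did not pass. SELENOS (1.39), SELENOP (1.32) and SELENOK (0.95) had the largest rises. The largest falls were in GPX2 (-1.13), the gastrointestinal glutathione peroxidase, SELENON (-0.99) and MSRB1 (-0.97). GPX1, like GPX4, did not pass (593 ± 57.8 and 581 ± 14.2 CPM). The counts in these lists are a description, and no list was tested as a set. Of all genes, 27.7% passed as higher and 28.8% as lower, 56.5% in either direction.

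**Figure D4:**
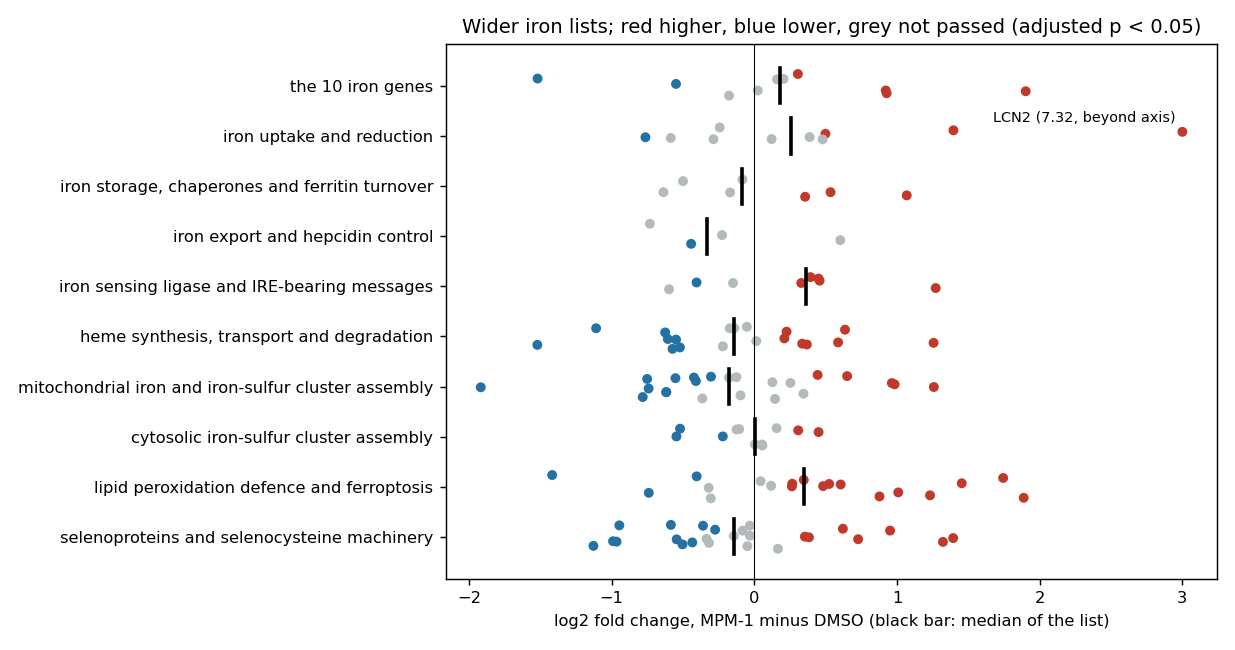
log2 fold changes of MPM-1 minus DMSO for each gene of the 10 iron genes and the 9 wider lists, as points (red higher, blue lower, grey not passed at an adjusted p-value of 0.05, edgeR), with the median of each list as a black bar. The point of LCN2 lies beyond the axis at 7.32. Medians run from -0.33 in the export list to 0.36 in the ligase and IRE list.

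The genes with a pattern most like that of FTH1 over the 6 libraries, by the root mean square difference of log2 CPM centred on each gene's mean, were CDCP1 (0.0592), ARG2 (0.0678) and MLPH (0.0766). Their log2 fold changes were 1.80, 1.97 and 1.93. Most like SLC40A1 were NewGene_832 (0.184), DLX6 (0.186) and PRKAR2B (0.196), all at a greater distance. With 2 treatments and 6 libraries this likeness mainly matches the size of the difference between the treatments.

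An antioxidant response element core (TGACNNNGC, either strand) was looked for in RefSeq promoter windows on GRCh38.p14, from 250 bases before to 50 bases after the gene start. Windows were at hand for 9 of the 10 genes, all but FTH1, whose promoter was not searched. The core was found in 2 of their 16 windows, 1 of FBXL5 and 1 of NCOA4, against 13.3% of all 35116 windows. No match was found in the FTL window, which says nothing of sites elsewhere.

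The libraries held 31733667 to 40269820 counts, so the FTH1 values rest on 150378 to 542153 counts per library and those of SLC40A1 on 14 to 92. Transcripts of the mitochondrial genome took up 8.28% to 9.11% of counts in DMSO and 1.95% to 2.35% after MPM-1. Leaving these genes out of the scaling changed no call among the 10 genes. The 7 epithelial markers were all in the table, with a summed level of 8247 to 9633 CPM in DMSO and 12173 to 13706 CPM after MPM-1, and 4 passed as higher and 2 as lower. The lower ones were CDX2, the intestinal transcription factor, at -2.20 on the log2 scale, and VIL1, which encodes the brush border protein villin, at -0.88. Of 15 markers of leukocytes, fibroblasts, endothelium and red cells, only CD14 and COL1A1 were in the table, at no more than 9.84 and 3.34 CPM.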

How the data were processed

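Messenger RNA of SW480 cells was sequenced in 3 DMSO and 3 MPM-1 libraries, and samples were grouped by their labels. The authors deposited 1 table that gives, for every gene and library, raw counts (whole numbers) beside FPKM values. Its lowest total was 115 counts per gene. The submitters' processing notes name HISAT2, DESeq2 and mm10, a mouse build, although the identifiers are human. Coordinates here come from GENCODE 29. The authors' deposited log2 fold change and FDR (an adjusted p-value) hold their own comparison and were not used.

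Counts were tested in R 4.3.3 with edgeR 4.0.16 (TMM, quasi-likelihood, two-sided), no covariates, over all 12982 genes. Standard errors were taken from the F statistic. The tests were checked on simulated data. FPKM was tested with limma 3.58.1 on log2(FPKM + pseudocount), with a filter that left 11497 genes, and served for ratios and level order. Alternatives included DESeq2 1.42.0. Intervals cover these libraries only, and reads are not independent molecules.

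The 10 genes and all lists were chosen with earlier results of these data known. All 10 genes are named, and in each list the up to 3 largest rises and 3 largest falls among passed genes without overlap between treatments, plus the 3 genes nearest in pattern to FTH1 and to SLC40A1. Other genes named (CYBRD1, HMOX1, ACSL4, GPX1, CDC14A, FECH, UROD, UROS, CPOX, LYRM4, GLRX5, NFS1, SLC25A37, AIFM2, CHAC1, BEST1, FAM200B, CDX2, VIL1, CD14, COL1A1) were chosen after their values were seen. Some results are not reported here. The 13 mtDNA-encoded genes all fell.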

Additional observations from a re-analysis of the deposited data

How the results depend on the processing

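The filter on low counts removed no gene, so a fit without it was the same fit. Under the 15 other alternative settings, FTH1, FTL and FBXL5 stayed higher and IREB2 lower, all passing the test, with log2 fold changes from 1.75 to 1.98, from 0.77 to 1.00, from 0.55 to 0.96 and from -0.70 to -0.47. TFRC never passed. Scaling by library size alone shifted the median of all genes by -0.15 and limma on log2(FPKM + 0.1) by -0.12. The share of higher genes among those that passed was 49.0%, and 34.7% and 36.7% under these settings. With pseudocounts of 0.1, 1 and 0.01, limma called 2345, 2358 and 2341 higher genes of 11497. Signs turned in GPX4 (-0.13 with library size alone, -0.13 with each of the limma settings, and -0.0022 to 0.085 with single libraries left out, lowest without DMSO replicate 2) and in SLC11A2 (-0.13, -0.12 and -0.13 with pseudocounts of 0.1, 1 and 0.01), and the cause was not tested. The group held 2 DEGs, SLC40A1 being added, with library size alone and with DESeq2. It held 1 lower gene with a mean of at least 50 counts, since SLC40A1 was then not tested. With single libraries left out, DEGs numbered 1 to 2 (2 without DMSO replicate 1) and lower genes 1 to 3 (1 without DMSO replicate 3, 3 without MPM-1 replicate 1).

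The deviations of same-numbered libraries from their treatment means had correlations of 0.021, 0.11 and -0.074. Those of differently numbered libraries ran from -0.13 to 0.11. With 3 libraries per treatment this cannot show whether same-numbered libraries shared a batch, and the labels do not say. With the replicate block, 4 genes were higher, 2 lower and 1 a DEG, as without it. The FTH1 to FTL, TFRC to FTH1 and IREB2 to ACO1 log2 ratio differences were 1.04, -1.80 and -0.35 with the block (exact p = 0.25, the smallest possible). A count of 0 would allow up to 3 counts, 0.0695 to 0.0985 CPM in these libraries. Of the 10 genes, SLC40A1 had the fewest counts.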
